A study of Mus musculus with 4 samples.

Results

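Amphiregulin and the genes it belongs with were followed here across the mesenteric and peripheral lymph node: 7 genes for ligands of the EGF receptor family (Areg, Ereg, Hbegf, Btc, Egf, Tgfa and Nrg1) and 3 genes for receptors (Egfr, Erbb2 and Erbb3). Members were the non-control probes whose gene name in the scanner files was one of these 10, which gave 27 of the 41174 probes on the array. Of these, 23 entered the analysis, as did 31883 of all probes, because either node had them well above background on both of its arrays. All 10 genes were therefore represented by a probe that carried their name, among 21392 genes tested. Areg was chosen by its measured signal, which was already known to be far lower in mLN than in pLN on these arrays, so its values are a description and carry no test. Genes were named at the level of the probe, and 1 probe per gene, the one with the highest mean, represented it in the comparison.

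The samples were CD45-negative cells, the cells left when leukocytes are depleted, of wild-type C57BL/6NCrl mice, for which the labels name neither a diet nor another treatment. They came from a node that drains the gut, the mesenteric lymph node (mLN), or from the peripheral lymph node (pLN), and were freed with collagenase and separated on magnetic beads to a stated mean purity of 97.4% ± 2.0 (SD) for mLN and 97.5% ± 2.2 for pLN. Each node was measured in 2 experiments on 1-colour Agilent arrays, 2 arrays per node and 4 in all. The labels name neither the peripheral nodes taken nor the number of animals in a sample, and do not say that the experiments used different animals. A p-value here covers no more than the spread of these 4 samples.

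The EGF family are growth factors made as membrane-bound precursors and set free by proteases of the ADAM family. They bind EGFR or its relatives, which pair with each other and pass the signal to the Ras, MAP kinase and PI3 kinase pathways. Amphiregulin, betacellulin, epiregulin, EGF, TGF-alpha and HB-EGF bind EGFR, neuregulins bind ERBB3 or ERBB4, and ERBB2 has no known ligand of its own. In lymphoid and barrier tissue amphiregulin is known as a repair factor that leukocytes, epithelium and some stromal cells make.

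All 8 tested markers of fibroblastic reticular cells, all 7 of blood endothelium and all 5 of lymphatic endothelium were well above background on every array. None of these passed an adjusted p of 0.05 between the nodes, in a test that found 0% of simulated log2 changes of 1. Without overlap, 4 of the 7 blood endothelial markers were lower in mLN (25% of all genes) and 2 were higher (20.6%). Ptprc, the gene for CD45, was also detected on every array and its log2 ratio of mLN over pLN was 0.06 ± 0.21 (SE, limma, Benjamini-Hochberg adjusted p = 0.944). The 75th percentile of the signal, to which each array was scaled, lay between 1686 and 1741. In all, 225 of the 21392 genes passed the adjusted p, which is 1.05%. With the pLN array of either experiment left out, no gene passed. The log2 ratio of all genes had a median of -0.03, and its 5th to 95th percentile ran from -0.79 to 0.85.

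Areg was bright in pLN and not well above background in mLN. Its processed signal was 1102 in pLN of experiment 1 and 2303 in pLN of experiment 2, against 3.38 and 5.30 in mLN. The pLN and mLN arrays did not overlap, and the higher pLN value came from experiment 2. The unprocessed spot mean on the mLN arrays was 53.8 and 58.9, beside a local background of 54 and 56.5, so that the scanner software gave a surrogate value there in place of a measured one. In pLN the spot mean was 920 and 1918 over a background of 48.0 and 55.0.

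Because the mLN values only bound the level from above, the fold is given as a bound: the mean scaled log2 value of the brighter node against, for each array of the dimmer node, the dimmest signal that was still well above background. That signal was 12.9 and 19.0 on the mLN arrays. It is not a ceiling for every undetected probe, since an Erbb3 probe not well above background read 22.2 on mLN of experiment 2. Every fold given as at least a value uses this limit. Areg was at least 103-fold lower in mLN than in pLN by this measure. The bound was 70.5-fold without the pLN array of experiment 2 and 152-fold without that of experiment 1. It was 84.9-fold and 126-fold without the mLN array of experiment 1 and of experiment 2. Taken with the surrogates, the log2 ratio was -8.35 in experiment 1 and -8.80 in experiment 2, with a mean of -8.58. This mean moved to -6.54 with the deposited value table, which sets low values to a floor of 15. It moved to -2.53 with normexp background correction, which was run with an offset of 50. What part of that move the offset made was not tested. In RNA from whole samples, fewer cells that make a transcript and less of it per cell cannot be told apart.

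The Areg value rests on 1 probe with a single spot on each array, and its sequence was not checked against a transcript. The probe lies at chr5:92216264-92216323 on the plus strand of mm8, the build of the files, and reads as follows, 5′ to 3′.
Areg probe: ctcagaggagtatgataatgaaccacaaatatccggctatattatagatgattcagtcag
Neither a second Areg probe nor a replicate spot was there to check it.

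**Figure D1:**
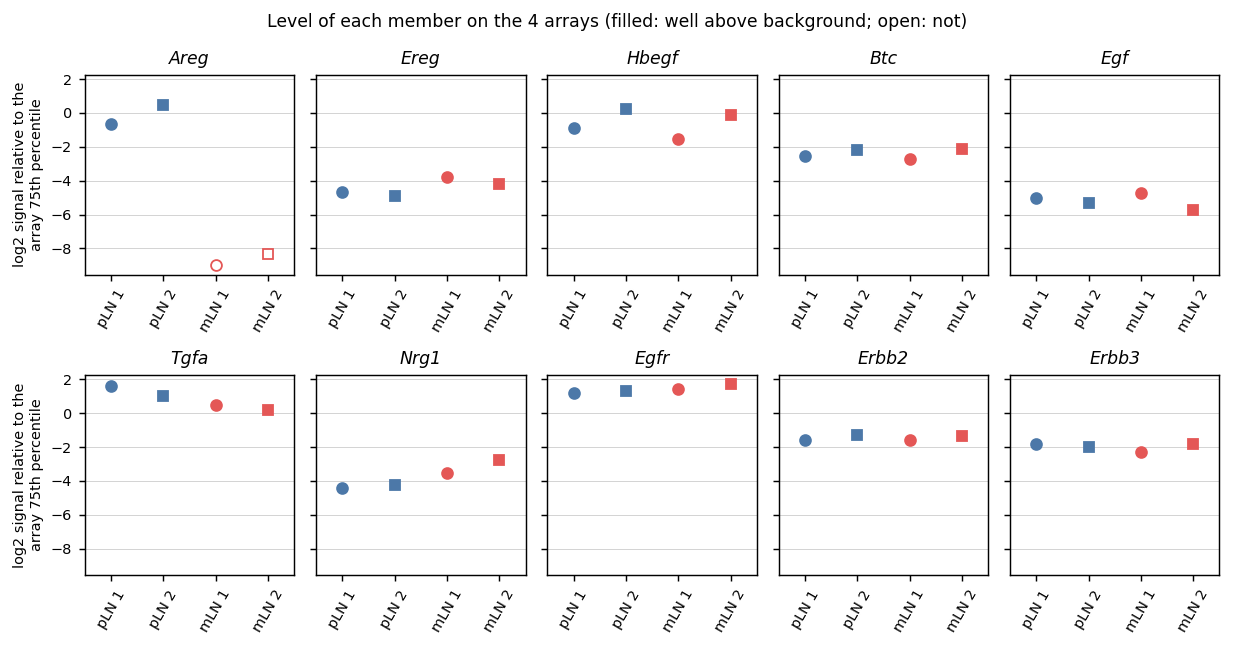
Level of the 10 members on the 4 arrays. The vertical axis is the log2 processed signal relative to the 75th percentile of the array, blue is pLN, red is mLN, circles are experiment 1 and squares experiment 2, and open symbols are not well above background. Areg lies at -0.65 and 0.45 in pLN and at -9.01 and -8.35 in mLN. The probes that represent the other members stay well above background on all 4 arrays.

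The question asked of the other members was whether they followed Areg. None of the other 9 passed at an adjusted p of 0.05 in limma, with adjusted p-values between 0.197 and 0.974. None passed when the experiment entered as a block, where the lowest was 0.112 and 1.56% of all genes passed. At an unadjusted p under 0.05 there were 3 of 9, Nrg1 and Ereg with higher and Tgfa with lower values in mLN, where 14.7% of all genes reached that level. The arrays of the nodes did not overlap for 4 of 9, beside 45.6% of all genes. Of these 4, 3 were higher in mLN (20.6% of all genes) and 1 was lower (25%). None of the 9 differed 2-fold or more, in 1 direction, in each experiment, beside 4.45% of all genes. The median log2 ratio of the 9 was -0.06, near that of all genes. Over the 13 alternative settings the sign held for Tgfa, Ereg, Nrg1 and Egfr, and turned in at least 1 for Hbegf, Btc, Egf, Erbb2 and Erbb3, and none of the 9 passed in any. Counting Areg, 1 of 10 members passed, beside 1.05% of all genes, a count that the choice of Areg fixes.

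A p that misses the threshold does not show that levels were equal, but the intervals limit how far the tested probes could have followed Areg. For Ereg and Erbb3 those probes were to a cDNA clone and a predicted transcript, as described below. Among the 9, the lowest end of any 95% interval was a log2 ratio of -2.16, for Hbegf, which is 4.46-fold lower in mLN. The bound for Areg is 103-fold.

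Of the 6 other ligand genes among the members, Tgfa had the lowest ratio. Tgfa encodes TGF-alpha, a ligand of EGFR alone among the receptors. Its signal was 5306 and 3375 in pLN and 2437 and 2009 in mLN, so both mLN arrays lay below both pLN arrays. The log2 ratio was -0.96 ± 0.26 (95% interval -1.66 to -0.25, adjusted p = 0.218), a 1.94-fold lower level that did not pass. Each array carried this probe on 10 spots, of which 1 was left out on mLN of experiment 2 as an outlier, and the SD among spots was 0.04 to 0.06 on the log2 scale. A second Tgfa probe read 189 and 245 in pLN and 151 and 139 in mLN, also without overlap.

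Ereg, the gene for epiregulin, is a neighbour of Areg on the chromosome, and its values leaned the other way. The probe that represented it read 68.4 and 55.8 in pLN and 127 and 92.7 in mLN. Both mLN values were above both pLN values, with a log2 ratio of 0.79 ± 0.22 (95% interval 0.20 to 1.38, adjusted p = 0.221). This probe carries the accession of a cDNA clone and not of the RefSeq transcript, and it lies 40.7 kb from the RefSeq probe on the opposite strand, nearer to the probe of the next ligand gene, Epgn (16.8 kb). Whether it measures Ereg was not tested.

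The RefSeq probe of Ereg read 15.2 and 8.56 in pLN and 31.3 and 11.1 in mLN. It was well above background only on mLN of experiment 1, so it did not enter the comparison. Unlike Areg, Ereg was thus near background by its RefSeq probe in both nodes.

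Nrg1 encodes neuregulin 1, a ligand of ERBB3 and ERBB4, and 5 probes carried its name. The probe that represented it read 81.3 and 87.8 in pLN and 148 and 253 in mLN. Both mLN arrays were higher, with a log2 ratio of 1.17 ± 0.30 (95% interval 0.37 to 1.98), and the adjusted p was 0.197, so the difference did not pass.

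The 3 Nrg1 probes to the RefSeq transcript gave a different picture in the 2 experiments. Their log2 ratios were 0.31, 0.04 and -0.27 in experiment 1 and 1.77, 1.57 and 1.5 in experiment 2. In pLN all 3 were lower in experiment 2 than in experiment 1, and in mLN all were higher. The first of them, for instance, read 79.7 and 36.0 in pLN and 99.5 and 126 in mLN. The fifth probe, to another cDNA clone, had ratios of 0.15 and 0.31. The ratio was thus above 0 for all 5 probes in experiment 2 and for 4 of 5 in experiment 1. The sequence of that first RefSeq probe is printed as an example of a probe whose ratio differed between the experiments.
Nrg1 probe: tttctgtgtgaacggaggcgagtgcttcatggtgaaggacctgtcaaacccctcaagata

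**Figure D2:**
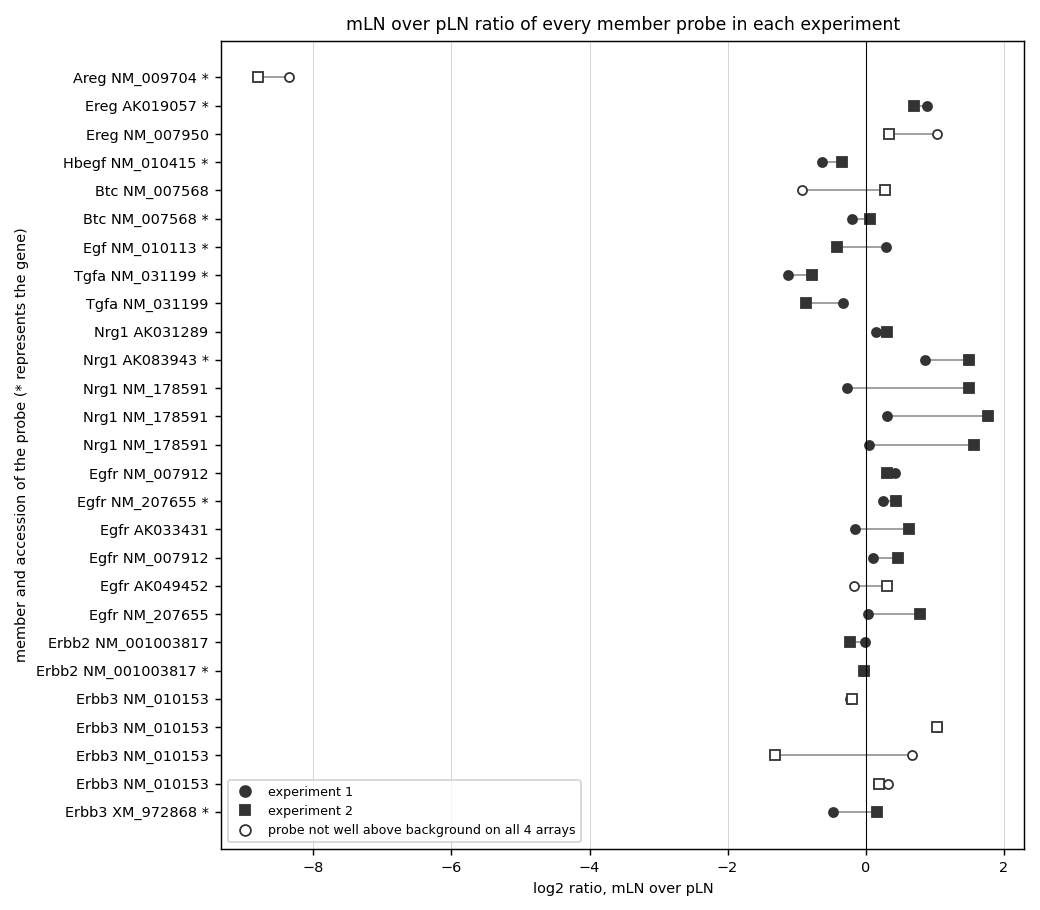
Ratio of every member probe in each experiment. The horizontal axis is the log2 ratio of mLN over pLN within an experiment, circles are experiment 1, squares experiment 2, open symbols mark probes not well above background on all 4 arrays, and an asterisk marks the probe that represents the gene. Areg stands at -8.35 and -8.80, and all other probes lie between -1.32 and 1.77.

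For the remaining ligands the arrays of the nodes overlapped. Hbegf encodes HB-EGF, which also binds heparin and ERBB4, and read 925 and 1943 in pLN and 598 and 1564 in mLN. Its arrays overlapped, since both values of experiment 2 were above both of experiment 1. The mLN value was the lower one in each experiment, and the log2 ratio was -0.49 ± 0.62 (95% interval -2.16 to 1.17, adjusted p = 0.804).

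Btc, the gene for betacellulin, read 301 and 377 in pLN and 262 and 403 in mLN, with ratios of opposite sign in the 2 experiments. The log2 ratio was -0.07 ± 0.28 (95% interval -0.83 to 0.68, adjusted p = 0.949). Its second probe was not well above background on any array. Egf itself read 53.5 and 42.4 in pLN and 65.9 and 32.6 in mLN, again with ratios of opposite sign, 0.29 and -0.42. Its log2 ratio was -0.06 ± 0.38 (95% interval -1.08 to 0.96, adjusted p = 0.969), and the 10 spots of its probe had an SD of up to 0.22 on the log2 scale.

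The 3 receptor genes had log2 ratios between -0.16 and 0.34, and none passed. Egfr encodes the receptor for amphiregulin, and its signal was 3987 and 4132 in pLN and 4765 and 5741 in mLN. Both mLN arrays were above both pLN arrays, at a log2 ratio of 0.34 ± 0.17 (95% interval -0.10 to 0.79, adjusted p = 0.459). Of its 6 probes, 5 entered, and the mean log2 ratios of these 5 lay between 0.24 and 0.41. These probes cover both RefSeq transcript variants in the annotation of the files. The 2 probes to variant 2 had ratios of 0.42 and 0.30, and of 0.10 and 0.47, in experiments 1 and 2.

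Erbb2, the receptor that pairs with all the others, read 584 and 682 in pLN and 575 and 688 in mLN. The node values were nearly the same within each experiment, with a log2 ratio of -0.03 ± 0.18 (95% interval -0.52 to 0.47, adjusted p = 0.974). Its second probe read 52.3 and 52.7 in pLN and 52.2 and 46.2 in mLN.

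Erbb3, whose product binds neuregulins but has little kinase activity, was represented by a probe to a predicted transcript that lies 2.53 kb from the nearest RefSeq Erbb3 probe. It read 495 and 430 in pLN and 358 and 491 in mLN, which overlap, at a log2 ratio of -0.16 ± 0.21 (95% interval -0.73 to 0.41, adjusted p = 0.817). The 4 RefSeq probes of Erbb3 were dim: 3 were well above background on 3 arrays each, all but mLN of experiment 2, and 1 on none. An overlapping pair of these dim probes is printed with the 40 shared bases in capitals, because their ratios differed.
Erbb3 probe 1: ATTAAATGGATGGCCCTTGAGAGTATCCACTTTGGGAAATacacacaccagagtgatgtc
Erbb3 probe 2: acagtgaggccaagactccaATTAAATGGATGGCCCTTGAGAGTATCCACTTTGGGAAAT
Probe 1 read 17.4 and 22.0 in pLN and 14.96 and 19.5 in mLN, with log2 ratios of -0.22 and -0.21 in experiments 1 and 2. Probe 2 read 18.1 and 35.5 in pLN and 28.9 and 14.6 in mLN, with log2 ratios of 0.67 and -1.32. Why the pair differed was not tested.

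Beyond the members, 75 genes of the pathway were listed, of which 71 were tested. None passed the adjusted p in limma, with or without the experiment as a block, where 1.05% of all genes passed without it. At an unadjusted p under 0.05 there were 6 of 71, beside 14.7% of all genes, and 4 of the 6 were lower in mLN. The median log2 ratio was -0.18, with a range from -2.10 to 0.82, beside a median of -0.03 for all genes. Of the 71, 73.2% had a negative ratio, against 55.7% of all genes.

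Nrg4, a neuregulin that binds ERBB4, had the lowest ratio among these 71. It read 228 and 260 in pLN and 70.0 and 47.6 in mLN, without overlap. Its log2 ratio was -2.10 ± 0.24 and its adjusted p was 0.053, just above the threshold, and 0.0657 with the experiment as a block. It passed in 5 of the 13 alternative settings, with adjusted p-values from 0.029 to 0.0454, while with normexp the log2 ratio was 0.10 (adjusted p = 0.962). The other tested members of the ligand and receptor family were Epgn, the gene for epigen (-0.54 ± 0.21, adjusted p = 0.354), and the receptor gene Erbb4 (0.03 ± 0.15, adjusted p = 0.966). The probe for Erbb4 was to a predicted transcript. Nrg3 was not above background, and Nrg2 was not named on the array.

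The genes whose products release or ferry the ligands had a median log2 ratio of -0.16 over 11 genes, and 0 of 11 passed. The lowest p-values there belonged to Rhbdl2, a rhomboid protease (0.82, adjusted p = 0.168), and to Adam10, the sheddase of EGF and betacellulin (-0.65, adjusted p = 0.383). Adam19 and Adam8, other membrane proteases, had log2 ratios of 0.31 and -0.34, although the 3 probes of Adam19 ran from -0.42 to 0.37. Adaptors and signalling proteins downstream of the receptors had a median of -0.21 over 12 genes, with 0 passing. Plcg1, a phospholipase that binds activated EGFR, stood at -0.83 (adjusted p = 0.16) and the adaptor Grb7 at -0.82 (adjusted p = 0.406). Nras, a Ras protein, and Eps15, an endocytic adaptor, stood at -0.30 and -0.24. The sign held over all probes for Eps15 but not for Plcg1 or Nras, whose 3 probes each reached up to 0.0058 and 0.06.

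Feedback inhibitors of the receptors had a median of -0.05 over 17 genes, with 0 passing. Lrig3, of a family of membrane proteins that restrain receptor signalling, stood at 0.54 (adjusted p = 0.224), Cblc, a ubiquitin ligase, at -0.79 (adjusted p = 0.315) and Spry1, a Sprouty inhibitor, at -0.43 (adjusted p = 0.331). Its relative Spry4 stood at -0.63 (adjusted p = 0.413). Genes that respond to the pathway had a median of -0.22 over 17 genes and none passed. Among these were Ccnd1, the gene for cyclin D1, at -0.46 (adjusted p = 0.45) and Klf10 at -0.38 (adjusted p = 0.544). The transcription factor genes Jun and Etv4 stood at -0.56 and 0.16.

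Cyclic AMP and prostaglandin E2 are known inducers of Areg in other cells, and 11 genes of that route were tested. None passed, and their median was -0.18. Pde4d, a phosphodiesterase that breaks down cyclic AMP, stood at -0.57 (adjusted p = 0.351), Ptger2 and Ptger4, prostaglandin E2 receptors, at -0.41 (adjusted p = 0.36) and 0.43 (adjusted p = 0.636), and Crem, a cyclic AMP responsive factor, at -0.36 (adjusted p = 0.487).

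**Figure D3:**
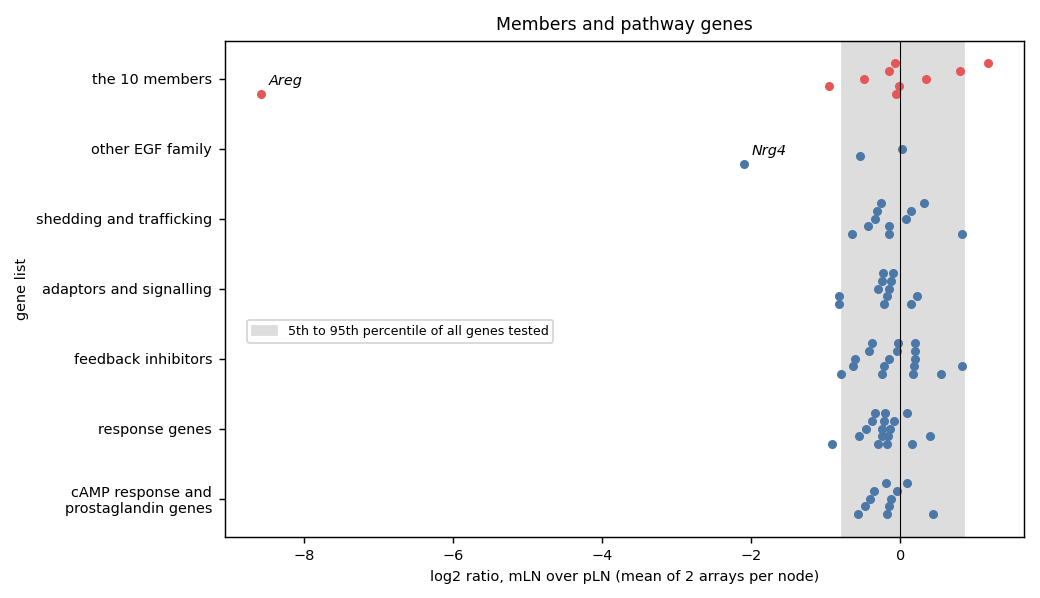
Log2 ratio of mLN over pLN for the 10 members (red) and the tested genes of 6 pathway lists (blue), each point 1 gene and the mean of 2 arrays per node. The grey band is the 5th to 95th percentile of all genes tested, -0.79 to 0.85. Areg at -8.58 and Nrg4 at -2.10 lie far to the left of the band, and most other points lie within it.

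The promoter of Areg is printed because it holds a sequence motif of the cyclic AMP route whose genes were described above. RefSeq promoters on GRCm38.p6 were found for 6 of the 10 members (Areg, Btc, Egf, Tgfa, Egfr and Erbb2). The 250 bases before the start of Areg lie at chr5:91139349-91139598 on the plus strand. Capitals mark a cyclic AMP response element, TGACGTCA, which begins 61 bases before the start, and a TATA box, TATAAA, 31 bases before it.
Areg promoter: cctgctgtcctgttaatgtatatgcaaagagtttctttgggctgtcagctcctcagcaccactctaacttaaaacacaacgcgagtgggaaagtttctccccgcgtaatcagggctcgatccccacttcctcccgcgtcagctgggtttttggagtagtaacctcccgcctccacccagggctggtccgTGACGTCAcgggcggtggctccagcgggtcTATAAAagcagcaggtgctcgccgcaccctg
Searched on both strands of the same window, TGACGTCA was in 1.55% and TATAAA in 12.4% of 32851 promoters. Among the 6 members with a promoter, Areg alone held either one. The letters describe the sequence and say nothing of whether a factor was bound there.

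On the chromosome, 24 tested genes other than Areg lay within 1000000 bases of its probe. Of these, 1 passed, Cxcl15, beside 1.05% of all genes. Their median log2 ratio was -0.08, and arrays of the nodes did not overlap for 9 (45.6% of all genes), of which 4 were lower and 5 higher in mLN. Cxcl15, a chemokine gene 346 kb before Areg in mm8 coordinates, read 731 and 530 in pLN and 15.5 and 4.47 in mLN, of which the last was not well above background. It thus entered through pLN alone, where it was high, so its pass carries no support. In experiment 1, where both arrays measured it, its log2 ratio was -5.57. The fit over all 4 arrays, which takes the value below background as it stands, gave an adjusted p of 0.0425, and this call, like all others, was lost without either pLN array. Its other probe had a log2 ratio of -4.43. The genes nearer to Areg than Cxcl15 included the ligand genes Ereg, Epgn and Btc, none of which passed.

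**Figure D4:**
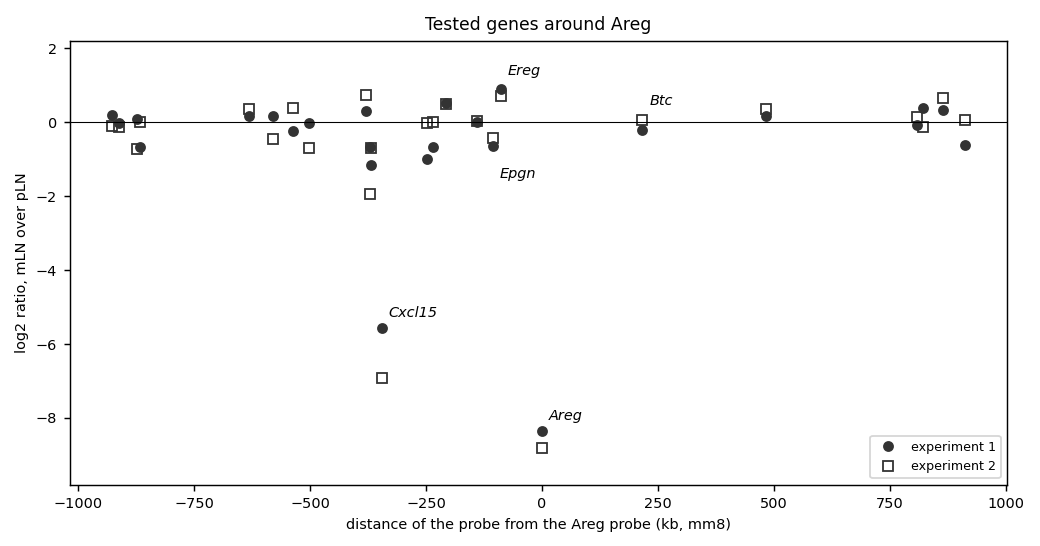
Log2 ratio of mLN over pLN of the tested genes within 1000000 bases of Areg, by distance of their probe from the Areg probe in kb. Filled circles are experiment 1 and open squares experiment 2. Areg and Cxcl15 lie below -5 in both experiments, and the mean ratios of Ereg, Epgn and Btc are 0.79, -0.54 and -0.07.

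The genes whose pattern over the 4 arrays was most like that of Areg were found by the smallest Euclidean distance between log2 values centred on the mean of each gene. These distances use the surrogate values of Areg in mLN, and values of Shox2, Cxcl15 and Tbx15 that were not well above background there, so the order among close genes is not resolved. The 5 genes were Csn3 (distance 1.82), Tbx15 (2.16), Shox2 (2.72), Wfdc18 (2.91) and Cxcl15 (3.09). Csn3, which encodes kappa-casein, a milk protein, read 4015 and 11954 in pLN and 63.5 and 53.8 in mLN. Tbx15, a T-box factor of limb and skin mesenchyme, read 1570 and 1672 in pLN and 18.7 and 13.6 in mLN, although its 3 probes differed, with mean log2 ratios from -8.88 to -2.02. Shox2, a homeobox gene of limb mesenchyme, read 522 and 456 in pLN and was not well above background in mLN, at least 31.7-fold lower there. Wfdc18, a gene for a secreted protease inhibitor, read 2228 and 7784 in pLN and 100 and 32.2 in mLN. As with Areg, Csn3 and Wfdc18 were higher in pLN of experiment 2 than of experiment 1, whereas Cxcl15 and Shox2 were lower.

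**Figure D5:**
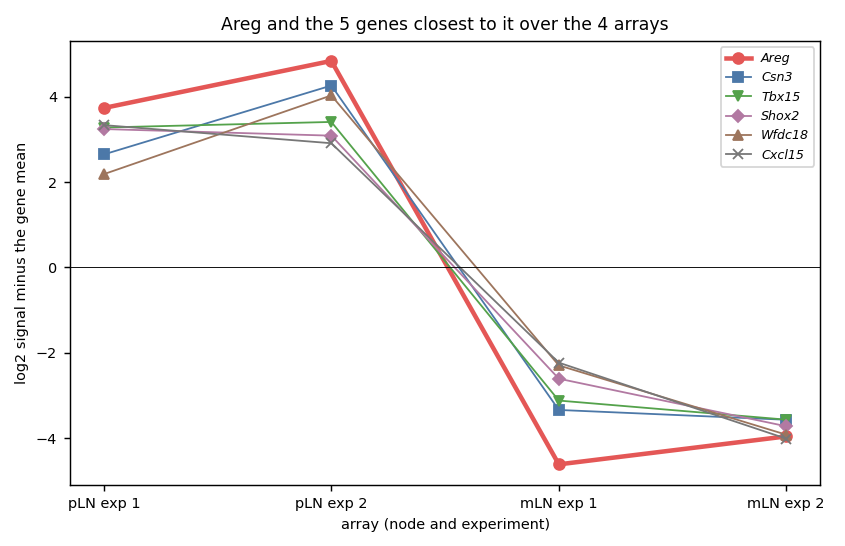
Areg and the 5 genes closest to it over the 4 arrays, as log2 signal minus the mean of each gene, by node and experiment. All 6 lines are high on both pLN arrays and low on both mLN arrays, and within pLN they part on the change from experiment 1 to experiment 2. The mLN values of Areg are surrogates.

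Some markers of other cell types were also lower in mLN. Of 15 tested markers of glandular and surface epithelium, 2 passed as lower in mLN and none as higher. Without overlap, 9 were lower and 1, Esr1, was higher. In both experiments 9 were lower in mLN, and 3, Krt8, Krt14 and Esr1, were higher. Among all genes, 0.276% passed as lower, and without overlap 25% were lower and 20.6% higher. Csn3, already picked above as closest to Areg, fell by 6.91 ± 0.57 on the log2 scale (adjusted p = 0.0252). Wfdc2, which encodes a secreted epithelial protein, fell by 4.56 ± 0.28 (adjusted p = 0.0155). The median log2 ratio of the 15 was -1.78, with a range from -6.91 to 0.76. Their summed level, in multiples of the 75th percentile of the array, was 13.8 and 22.9 in pLN and 9.84 and 7.01 in mLN. Elf5, a factor of mammary epithelium singled out after its values were seen, read 171 and 534 in pLN and was not well above background on the mLN arrays (14.6 and 16.5), at least 18.4-fold lower there, while the other 14 were detected on all arrays. With the experiment as a block 3 of 15 passed, beside 1.56% of all genes. The added marker was Elf5, which entered through pLN alone, where it was high, so its pass carries no support. The part of such cells in the Areg values was not tested.

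Leukocytes are a known source of Areg. None of the 7 leukocyte markers, 7 mast cell and basophil markers or 5 markers of innate lymphoid and regulatory T cells passed. That stands beside 1.05% of all genes, in a test that found 0% of simulated log2 changes of 1. Foxp3 and Il5, of the last list, did not enter. Without overlap, 4 of the 7 leukocyte markers were higher in mLN (20.6% of all genes) and 1 was lower (25%). The summed leukocyte level lay between 0.846 and 1.17 on all 4 arrays. Gata3, on the last of these lists and also made by gland epithelium, read 389 and 858 in pLN and 80.5 and 95 in mLN, at a log2 ratio of -2.75 ± 0.43 (adjusted p = 0.0985). In the other direction, 6 of 7 markers of mesothelium passed as higher in mLN, beside 0.776% of all genes. Among these, Wt1, Lrrn4, Bnc1 and Upk1b entered through mLN alone, where they were high, so their passes carry no support. Without overlap all 7 were higher, beside 20.6% of all genes. The summed level of that list was 3.45 and 4.89 in pLN and 40.4 and 30.0 in mLN. All 7 markers of pancreatic acinar cells were higher in mLN without overlap, beside 20.6% of all genes, with log2 ratios from 5.71 to 8.54. The ratios of Amy2a5 and Pnliprp2 use pLN values that were not well above background. Without a block 1 of the 7 passed, Amy2a5, beside 0.776% of all genes. It was not well above background in pLN, entered through mLN alone and was at least 53.2-fold higher there. With the experiment as a block 5 of the 7 passed, beside 1.56% of all genes. Among these, Amy2a5 and Pnliprp2 entered through mLN alone, so their passes carry no support. Their summed level was 16.8 and 1.16 in pLN and 676 and 254 in mLN. Of 6 melanocyte markers, Mlana alone passed, as lower in mLN (log2 ratio -4.56 ± 0.39, adjusted p = 0.0287), beside 0.276% of all genes. Without overlap, 3 of the 6 were lower (25% of all genes) and 0 were higher (20.6%). None of 4 adipocyte markers passed. The part of these cell types in the values of the 10 members was not tested.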

How the data were processed

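The deposited scanner files hold 1-colour intensity values that had been background-subtracted, detrended and, for low spots, replaced by a surrogate, per the file headers, which name Agilent Feature Extraction 9.5.3.1. Other deposited columns are flags of 0 or 1 for each spot. From the processed signals, control and outlier spots were left out, spots of a probe were averaged, and log2 values were centred on the 75th percentile of each array. Probes well above background on both arrays of a node entered, and the brightest per gene was tested. The deposited value table was used only as an alternative.

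The test was limma 3.58.1 (R 4.3.3; lmFit, eBayes) on 2 mLN and 2 pLN arrays. It had no block, and p-values were adjusted over 21392 genes (Benjamini-Hochberg). The total was 4.35 degrees of freedom, 2.35 of them from the prior. An exact permutation of 2 against 2 arrays cannot go below 0.333. Values after ± are standard errors unless marked. Same-numbered samples shared an experiment, and their deviations correlated with r = 0.25 across genes, so a fit with the experiment as a block was also made. On simulated data with 200 changed genes among 21392, the test found 0% of changes of 1, 74.5% of 3 and 93% of 6 on the log2 scale.

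RefSeq names on GRCm38 came from an accession for 24375 probes, a symbol for 6301 and a synonym for 2426, and 8072 kept their own. The members and lists were chosen with earlier results of these data known. Named genes were all members, up to 4 per pathway list by p-value, marker genes among those that passed or differed most, and the 5 closest to Areg. Alternatives changed the background correction, scaling, filter, gene rule, variance trend, block and arrays used.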

Additional observations from a re-analysis of the deposited data

How the results depend on the processing

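Over 13 alternative settings, Areg was lower in mLN wherever it was measured, from -9.13 to -2.53 on the log2 scale, and the ratios of Tgfa (-1.26 to -0.65), Nrg1 (0.77 to 1.59), Ereg (0.57 to 1.73) and Egfr (0.12 to 0.48) kept their sign. None of the 9 other members passed in any setting, with a lowest adjusted p of 0.0795, for Nrg1. Normexp background correction shifted the median of all genes by 0.41. With it, 0 members and 0 genes in all passed, Areg stood at -2.53, and ratios turned for Btc (0.61), Egf (1.58), Erbb2 (0.32), Erbb3 (0.39), Nrg4 (0.10), Epgn (1.18), Erbb4 (-0.23), Adam8 (0.86), Cblc (1.03), Pde4d (1.23) and Ptger2 (0.19). With the deposited value table Areg stood at -6.54, by its floor of 15. Exactly 1 pathway gene, Nrg4, passed with the value table (adjusted p = 0.0454), median scaling (0.029), quantile normalisation (0.0358), only probes above background on all 4 arrays (0.0438) and an intensity trend (0.0324). The count of all genes was 354 with median scaling, 441 with the trend and 44 without a filter. Quantile normalisation turned Egf (0.019). With only probes above background on all 4 arrays, 0 of 9 members passed, since Areg was not among them. With the experiment as a replicate block, 1 member and 0 pathway genes passed, as without it, and 333 genes in all. The 1 member, here and below, is Areg, which was chosen for this difference, so these member counts carry no test. Among the marker lists the block moved the count of acinar markers from 1 to 5 and of epithelial markers from 2 to 3. The added epithelial marker was Elf5, which entered through pLN alone. Leaving out 1 array gave 0 to 1 members, 0 pathway genes and 0 to 190 genes in all, with 0 members and 0 genes without the pLN array of either experiment. With 1 array left out the ratio ran across 0 for Hbegf (-1.19 to 0.21), Btc (-0.39 to 0.24), Egf (-0.56 to 0.44), Erbb2 (-0.16 to 0.11), Erbb3 (-0.39 to 0.073), Jun (-1.17 to 0.054) and Erbb4 (-0.062 to 0.11). The turns came without mLN replicate 1 for Hbegf, Btc, Erbb2, Erbb3 and Jun, without pLN replicate 2 for Hbegf, Btc, Erbb2 and Erbb4, without pLN replicate 1 for Egf and without mLN replicate 2 for Egf and Erbb4. Except where a floor or the genes left in is named, the cause was not tested. Dim probes, as of Erbb3 and of the RefSeq Ereg transcript, limit what these arrays resolve.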
